A study of Mus musculus with 8 samples.

Results

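The 10 genes examined here were those of the RUNX complex (Runx1, Runx2, Runx3, Cbfb and Cbfa2t3) and of the Ikaros family (Ikzf1, Ikzf2, Ikzf3, Ikzf4 and Ikzf5). A ChIP-Seq peak belonged to a gene when its centre lay in the annotated gene body or within 20 kb of it. This rule took 138 of the 67673 peaks called in 4 libraries, and the 10 genes were found among 21951 protein-coding genes of the mouse annotation. The libraries came from X18.1.1, a murine AML cell line from a radiation-induced leukaemia, whose own PU.1 is mutant. A clone with the empty vector (EV, PU.1-) was compared with a clone that carried PuER, wild-type PU.1 fused to an oestrogen receptor domain (PU.1+). Both clones, EV included, had been kept in 100 nM 4-hydroxytamoxifen (OHT), the ligand of that domain, for 2 h. PU.1 and CEBPA were each recovered once from each clone, so that every value below comes from 1 library per antibody and line, has no replicate check and carries no test. An antibody to PU.1 recovers the mutant protein in both clones and PuER in the PuER clone.

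RUNX proteins bind DNA through the Runt domain as a heterodimer with CBFB, which does not itself contact DNA, and RUNX1 is needed for the emergence of haematopoietic stem cells. CBFA2T3 (ETO2) is a corepressor of the family that includes the partner of RUNX1 in a translocation of human AML. Ikaros proteins are zinc finger factors of lymphoid and myeloid development that pair through their C-terminal fingers, and the products of Ikzf1, Ikzf2, Ikzf3, Ikzf4 and Ikzf5 are known as Ikaros, Helios, Aiolos, Eos and Pegasus. RUNX genes are transcribed from a distal and a proximal promoter. PU.1 binds ETS sites with a GGAA core, and CEBPA is a basic leucine zipper factor of the granulocytic and monocytic lineages.

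Sequences of the peaks are shown because they differ in which sites they hold. All are from the forward strand of GRCm38 (mm10) as given by RefSeq, 5′ to 3′, and cover the central 80 bp of a peak, or 30 bases around the site where the centre lay in an untranslated region. Capitals mark GGAAGT (an ETS site), TGTGGT or TGCGGT (RUNX sites) and TTGCNNAA (a CEBP site) on either strand, so that a GGAAGT site on the reverse strand reads ACTTCC. The first 5 sequences are from PU.1 peaks called only in PuER, 1 for each gene that had one with a GGAAGT site. Where a gene had such peaks with GAGGAAGT, the form preferred by PU.1, the one with this longer site closest to its centre is shown, and otherwise the one with GGAAGT closest to its centre.
Runx1, 134 kb into the gene, chr16:92692324-92692403: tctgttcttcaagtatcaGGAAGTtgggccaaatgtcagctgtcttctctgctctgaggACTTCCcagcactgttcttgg
Runx2, 160.0 kb into the gene, chr17:44654752-44654831: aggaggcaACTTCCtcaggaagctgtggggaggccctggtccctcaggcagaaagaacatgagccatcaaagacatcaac
Runx3, 4.08 kb beyond the 3′ end, chr4:135182037-135182116: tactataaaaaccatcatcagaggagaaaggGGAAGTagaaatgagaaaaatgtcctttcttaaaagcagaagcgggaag
Cbfb, 14.1 kb beyond the 3′ end, chr8:105232055-105232134: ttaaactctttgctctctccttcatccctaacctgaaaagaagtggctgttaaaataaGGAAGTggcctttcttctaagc
Ikzf1, at a transcription start 1.22 kb into the gene, chr11:11686205-11686234: tgagcaacttgaGGAAGTcattgtgaaaga
The Runx1 sequence holds a GGAAGT site on each strand. In those of Runx2 and Ikzf1 the site is preceded by GA on its own strand, which gives GAGGAAGT. At Runx2, the peaks at 1.87, 123 and 142 kb had GGAAGT closer to the centre, at 4, 2 and 7 bp, than the 29 bp of the peak shown. No PuER-only peak at Ikzf3 had a GGAAGT site in its central 80 bp.

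The next 3 sequences are from the places where all 4 libraries had a peak, taken at the PU.1 peak of PuER.
Cbfb, 187 bp upstream of the 5′ end, chr8:105170448-105170527: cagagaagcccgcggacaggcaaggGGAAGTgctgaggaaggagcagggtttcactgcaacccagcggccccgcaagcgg
Ikzf1, 78.5 kb into the gene, chr11:11763508-11763587: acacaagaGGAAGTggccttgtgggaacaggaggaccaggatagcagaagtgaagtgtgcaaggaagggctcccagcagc
Runx1, 24.3 kb into the gene, chr16:92801816-92801895: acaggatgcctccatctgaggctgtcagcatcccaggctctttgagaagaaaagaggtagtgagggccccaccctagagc
The Cbfb and Ikzf1 sequences each hold a GGAAGT site, and the Runx1 sequence holds none of the sites searched for. A further 4 sequences were chosen after the peaks were seen. They are from the PuER-only PU.1 peak at the distal promoter of Runx1, from a CEBPA peak called only in EV at its proximal promoter, from a PU.1 peak shared by the clones upstream of Cbfa2t3, and from a PuER-only PU.1 peak of Ikzf1 that overlapped a CEBPA peak called only in EV.
Runx1, 91 bp into the gene, chr16:92826025-92826054: acccaactTGTGGTtcTGTGGTtgtttatg
Runx1, 129 kb into the gene, chr16:92696738-92696767: ctcgcactcttcGGAAGTcagccactgtct
Cbfa2t3, 3.40 kb upstream, chr8:122702474-122702553: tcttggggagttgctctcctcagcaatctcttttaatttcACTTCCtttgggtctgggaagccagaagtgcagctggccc
Ikzf1, 4.10 kb into the gene, chr11:11689060-11689139: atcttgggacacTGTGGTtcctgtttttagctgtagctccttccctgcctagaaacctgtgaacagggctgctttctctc
The peak at the distal Runx1 promoter holds a pair of RUNX sites and no GGAAGT site, and the Ikzf1 peak at 4.10 kb holds a RUNX site and no GGAAGT site.

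In all, PU.1 had 5288 peaks in EV and 15683 in PuER, and CEBPA had 26119 in EV and 20583 in PuER. The lists gave intervals of 400 bp with no measure of peak height, and the depth of the libraries is unknown. A peak missing from a list did not pass the caller's threshold in that library, which is not a measurement of no binding. Peaks of 1 antibody that overlapped between the clones by at least 1 bp were counted as shared, and the others as called in that line only.

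PU.1 peaks at the RUNX and Ikaros loci numbered 9 in EV and 35 in PuER, and 30 of the 35 were called only in PuER. CEBPA peaks numbered 53 in EV and 41 in PuER, 12 of the 53 were called only in EV, and none of the 41 was called only in PuER. The peaks were unevenly spread over the genes. Runx1, Runx2 and Ikzf1 held 27 of the 35 PU.1 peaks of PuER and 25 of the 30 PuER-only peaks, and 41 of the 53 CEBPA peaks of EV. With their margins, these 3 genes also made up 751 of the 1484 kb searched. Ikzf2 and Ikzf4 had no peak in any of the 4 lists. By family, the RUNX complex genes held 7 PU.1 peaks in EV and 23 in PuER, and 40 CEBPA peaks in EV and 31 in PuER. The Ikaros genes held 2 and 12 PU.1 peaks and 13 and 10 CEBPA peaks, respectively. The sequence searched was 922 kb for the RUNX complex genes and 562 kb for the Ikaros genes.

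**Figure D1:**
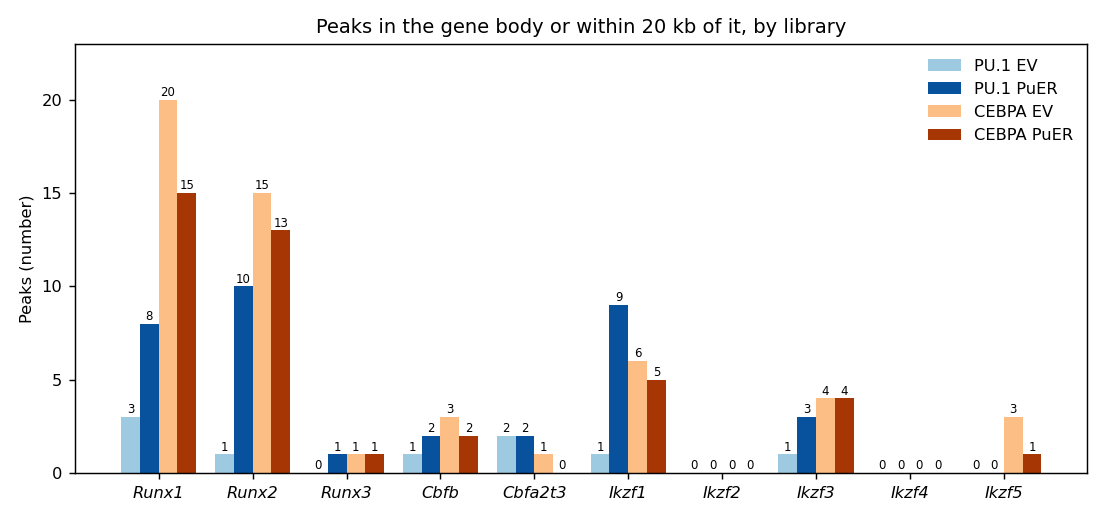
Number of peaks in each gene body or within 20 kb of it, for PU.1 and CEBPA in EV and PuER (1 library per bar). Runx1, Runx2 and Ikzf1 have 8, 10 and 9 PU.1 peaks in PuER against 3, 1 and 1 in EV, and Ikzf2 and Ikzf4 have none.

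Runx1 (chr16:92601466-92826149, reverse strand) encodes the RUNX factor of haematopoietic stem cells. It had 3 PU.1 peaks in EV and 8 in PuER, and 20 CEBPA peaks in EV and 15 in PuER. At the distal promoter, a PU.1 peak lay in the first exon, 91 bp from the 5′ end, and was called only in PuER. No CEBPA peak overlapped it, and the closest was 1107 bp further into the gene and called in both clones. At the proximal promoter, where an annotated transcript starts 128.8 kb from the 5′ end, the calls were the opposite. A PU.1 peak at 129.3 kb, in an exon and 505 bp downstream of the closest start, was called only in EV, and it overlapped a CEBPA peak at 129.4 kb that was likewise called only in EV. Around this promoter, 3 PU.1 peaks were called only in PuER, at 124, 126 and 134 kb, and none of them overlapped a CEBPA peak.

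Between the Runx1 promoters, PuER-only PU.1 peaks lay at 25.1 and 38.9 kb, and a further one lay at 150.3 kb. The single PU.1 peak shared by the clones was at 24.3 kb in PuER and 24.5 kb in EV, with 160 bp between the centres, so that it was not shared when centres within 100 bp were required, and it overlapped CEBPA peaks of both clones. It is the only peak of Runx1 that was present in all 4 lists. The remaining EV-only PU.1 peak, at 205 kb in an intron, overlapped a CEBPA peak called in both clones. Of the 20 CEBPA peaks of EV, 5 were called only there, at 41.5, 64.9, 120.2, 129.4 and 187 kb. The other 15 had a partner in PuER and made up the whole PuER list at this gene. Of these, 5 lay between 205 and 217 kb, where no PU.1 peak of PuER was called.

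Runx2 (chr17:44495987-44814797, reverse strand), the RUNX factor of bone formation, had the most PuER-only PU.1 peaks of the 10 genes. It had 1 PU.1 peak in EV and 10 in PuER, and all 10 were called only in PuER. CEBPA gave 15 peaks in EV and 13 in PuER. The PuER-only PU.1 peaks lay 16.5 kb upstream, and 1.87, 31.5, 84.3, 112, 123, 142, 151, 160.0 and 201 kb into the gene. Those at 160.0 and 201 kb overlapped CEBPA peaks called in both clones. Those at 123, 142 and 151 kb overlapped none, but had the centre of an EV CEBPA peak 486, 555 and 677 bp away. From 123 to 201 kb the PU.1 peaks thus lay at or within 1000 bp of CEBPA peaks, and those CEBPA peaks were called in both clones.

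The CEBPA peaks of Runx2 that were called only in EV were at the distal start, 83 bp into the gene, and at 89.6 kb. The EV-only PU.1 peak, at 37.1 kb, lay 272 bp from a start of Supt3, a gene for a subunit of the SAGA coactivator complex that overlaps the 5′ part of Runx2. The peaks at -16.5, 1.87 and 31.5 kb also lay in the body of Supt3, so that for these the gene is not set by position alone. No peak of either antibody was called in the last part of the gene, beyond 201 kb of its 319 kb.

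Runx3 (chr4:135120652-135177990, forward strand), a RUNX factor of T cells and sensory neurons, had no PU.1 peak in EV and 1 in PuER. This peak, 4.08 kb beyond the 3′ end, held a GGAAGT site. CEBPA gave 1 peak in each clone at the same place, 1.59 kb upstream in EV and 1.61 kb upstream in PuER. No peak was called in the gene body in any library.

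Cbfb (chr8:105170674-105217989, forward strand), the partner of all RUNX proteins, had 1 PU.1 peak in EV and 2 in PuER, and 3 CEBPA peaks in EV and 2 in PuER. At its promoter, all 4 libraries had a peak, with centres between 150 and 187 bp upstream of the 5′ end. The PuER peaks of PU.1 and CEBPA had a GGAAGT site in the central 80 bp, and the EV peaks, whose centres were shifted by 37 and 13 bp, respectively, did not. The PuER-only PU.1 peak at 61.4 kb and the CEBPA peaks at 54.5 kb (EV only) and 55.3 kb (both clones) lay in the neighbouring gene D230025D16Rik. The first CEBPA peak was 11 bp from the start of that gene. At Cbfb itself, the calls of both antibodies were therefore the same in EV and PuER.

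Cbfa2t3 (chr8:122625141-122699109, reverse strand), the corepressor gene, had PU.1 peaks in PuER but, at an overlap of 1 bp, none called only in PuER, which was so at no other of the 7 genes with a PU.1 peak in PuER. It had 2 PU.1 peaks in each clone. One lay 3.41 kb upstream in EV and 3.40 kb upstream in PuER, with 3 bp between the centres. The other lay 1.61 kb upstream in EV and 1.84 kb upstream in PuER, with 230 bp between the centres. All 4 peaks held a GGAAGT site in the central 80 bp, and none overlapped a CEBPA peak. The single CEBPA peak, called in EV only and 8.19 kb beyond the 3′ end, was closest to the start of Trappc2l. The second pair counts as shared at an overlap of 1 bp, but not when an overlap of 50% of each peak or centres within 100 bp were required. Under those rules Cbfa2t3 had a peak called only in PuER as well, and 7 of the 10 genes did.

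**Figure D2:**
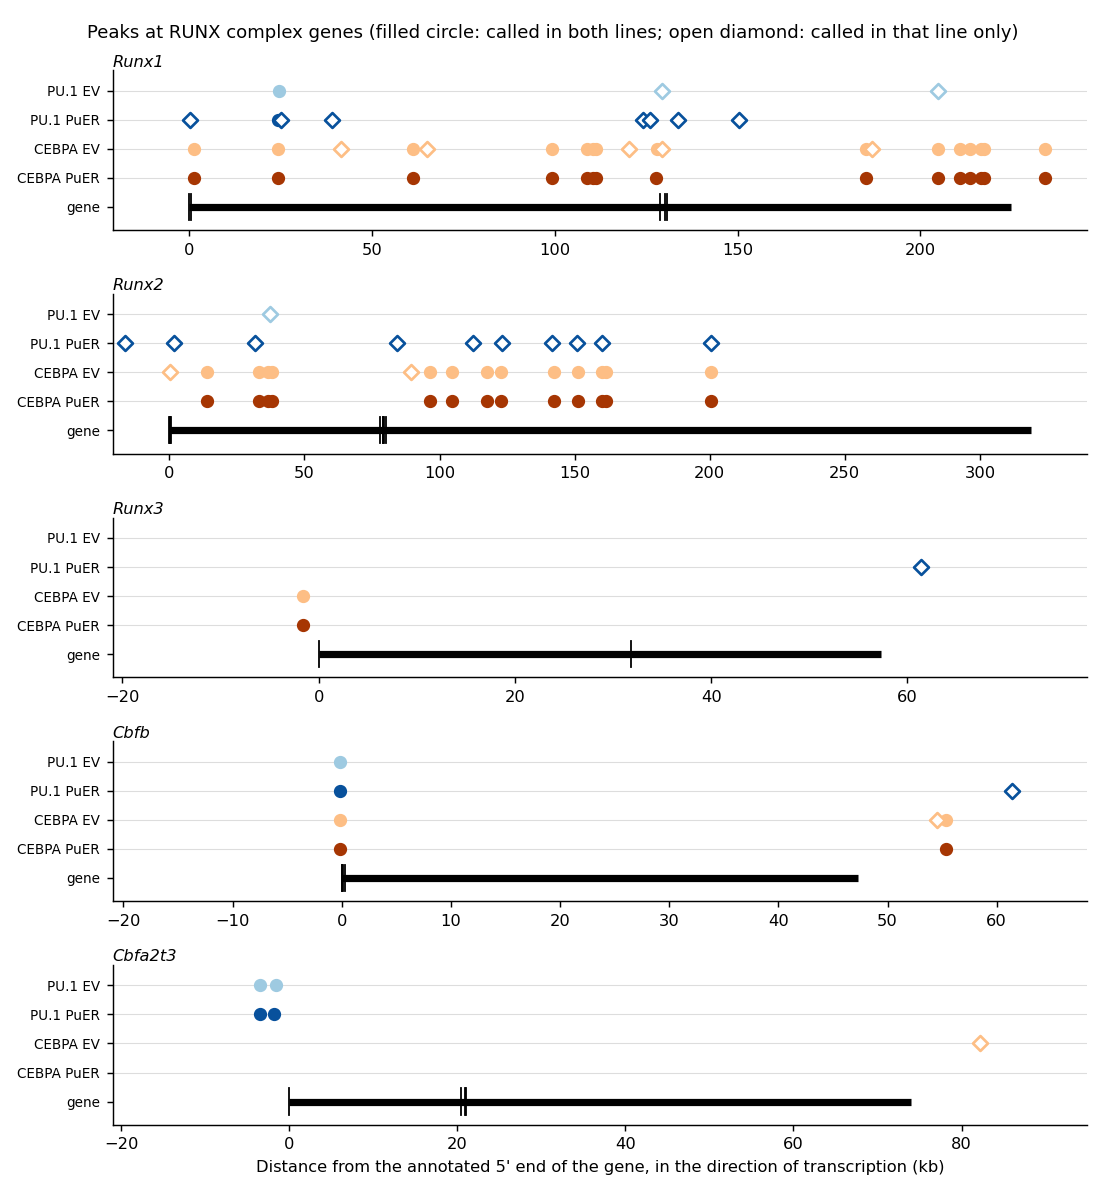
Peaks at the RUNX complex genes by distance in kb from the annotated 5′ end (black bar, gene body; black ticks, starts of protein-coding transcripts), with a row for each library. Filled circles are peaks called in both clones and open diamonds peaks called in that clone only. At Runx1 the PU.1 diamond at the distal start is in PuER and that at the proximal start, near 129 kb, is in EV.

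Ikzf1 (chr11:11685003-11772926, forward strand) encodes Ikaros, a regulator of lymphoid commitment. It had 1 PU.1 peak in EV and 9 in PuER, of which 8 were called only in PuER. CEBPA gave 6 peaks in EV and 5 in PuER. Per 100 kb of the gene body and its 20 kb margins, Ikzf1 had 7.04 PU.1 peaks in PuER, and 1.22% of all protein-coding genes had as many or more. Runx1 had 3.02 on the same scale, Runx2 2.79, Ikzf3 2.48, Cbfb 2.29, Cbfa2t3 1.75 and Runx3 1.03.

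At the promoters of Ikzf1, a PuER-only PU.1 peak was centred 5 bp from an annotated start, 1.22 kb into the gene. It held GAGGAAGT, with the GGAAGT part 1 bp from the peak centre, and overlapped a CEBPA peak called in both clones. Another PuER-only peak, at 4.10 kb, overlapped the only CEBPA peak of Ikzf1 that was called in EV and not in PuER, with 3 bp between the centres. It is the one place among the 10 loci where a PU.1 peak of PuER lay over a CEBPA peak of EV alone. The other PuER-only peaks were 17.3 kb upstream, with a GAGGAAGT site, at 5.29, 13.4 and 45.3 kb in introns, and at 96.9 and 100.7 kb, beyond the 3′ end. Those at 45.3 and 100.7 kb overlapped CEBPA peaks of both clones. The shared PU.1 peak at 78.5 kb, in an intron, overlapped CEBPA peaks of both clones and was the place of Ikzf1 found in all 4 lists. Its GAGGAAGT site lay 29 bp from the centre of the PuER peak and outside the central 80 bp of the EV peak, whose centre was 17 bp further on.

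Ikzf3 (chr11:98464902-98546031, reverse strand), which encodes Aiolos of the B cell lineage, had 1 PU.1 peak in EV and 3 in PuER, and none was shared. CEBPA gave 4 peaks in each clone, all shared, between 64.5 and 76.1 kb into the gene. The PuER-only PU.1 peak at 69.3 kb overlapped CEBPA peaks of both clones, and that at 75.1 kb was centred 1000 bp from one. The third was 14.4 kb upstream and closer to the start of Zpbp2. The EV-only peak was 6.96 kb beyond the 3′ end, closest to the start of Grb7, which encodes an adaptor protein. Neither antibody had a peak at the promoter of the Ikzf3 coding transcript.

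Ikzf5 (chr7:131388652-131410521, reverse strand), the gene for Pegasus, had no PU.1 peak in either clone. CEBPA gave 3 peaks in EV and 1 in PuER. The shared peak was 168 bp upstream in EV and 163 bp upstream in PuER, held a TTGCNNAA site, and lay 14 and 19 bp from the start of Acadsb, a gene of fatty acid and amino acid breakdown that is transcribed the other way. The EV-only peaks were 9.51 kb upstream, in Acadsb, and 16.3 kb beyond the 3′ end, 687 bp from the start of Pstk. Ikzf2 (chr1:69531214-69687245, reverse strand), the gene for Helios of regulatory T cells, and Ikzf4 (chr10:128630843-128645991, reverse strand), the gene for Eos, had no peak of either antibody, in windows of 196 and 55.1 kb.

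**Figure D3:**
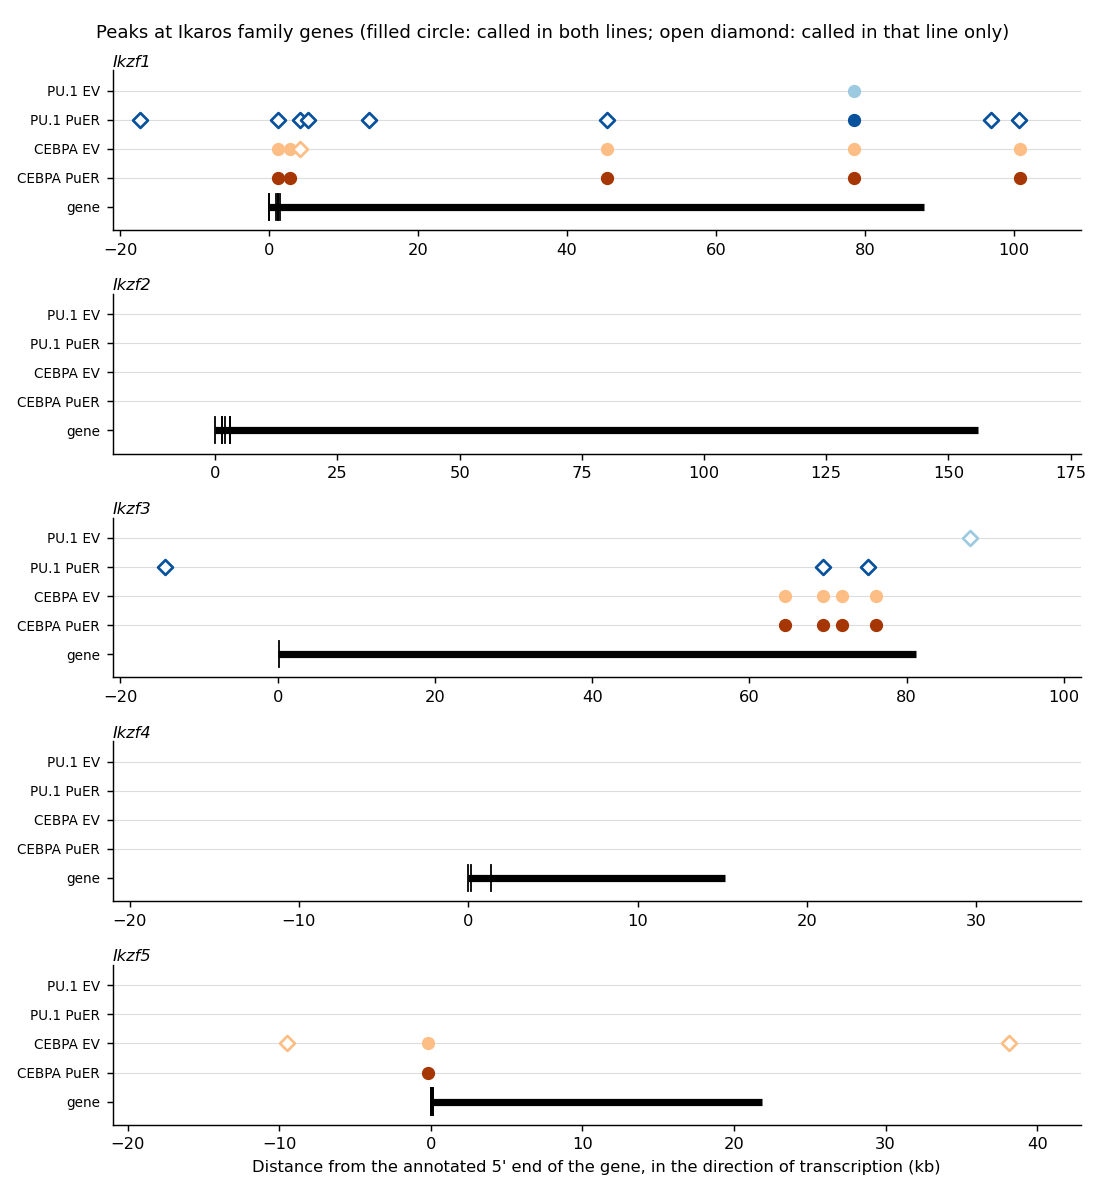
Peaks at the Ikaros family genes, drawn as for the RUNX complex genes (distance in kb from the 5′ end, 1 row per library, filled circles for peaks of both clones and open diamonds for peaks of that clone only). Ikzf1 has 8 PuER-only PU.1 peaks in its body and its margins on both sides, Ikzf3 has its 4 shared CEBPA peaks towards its 3′ end, and Ikzf2 and Ikzf4 are empty.

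The members were set beside all protein-coding genes under the same 20 kb rule. A PU.1 peak of EV was found at 6 of the 10 genes, against 23.7% of all genes. An EV-only PU.1 peak was found at 3 of 10 (13.7% of all genes) and a shared one at 4 of 10 (13.4%). At Runx2 and Ikzf3 the EV-only PU.1 peak was closest to a start of a neighbouring gene. A PU.1 peak of PuER was found at 7 of 10, against 41.4%, and a PuER-only one at 6 of 10 (Runx1, Runx2, Runx3, Cbfb, Ikzf1 and Ikzf3), against 36.7%. The PuER-only PU.1 peak of Cbfb lay in the neighbouring gene D230025D16Rik. A CEBPA peak was found at 8 of 10 in EV (56.5% of all genes) and at 7 of 10 in PuER (51.3%). CEBPA peaks called only in EV were at 6 of 10 (30.1%), shared ones at 7 of 10 (48.3%), and ones called only in PuER at 0 of 10 (11.4%). At Cbfb, Cbfa2t3 and Ikzf5, all EV-only CEBPA peaks were closest to the start of a neighbouring gene. The shares over all genes were not matched for window length, apart from the one for PuER-only PU.1 peaks given below.

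These windows were longer than most, with a median of 117.5 kb against 57.4 kb over all genes, and 9 of the 10 exceeded that median. Among all genes with a window of at least 100 kb, 55.2% had a PuER-only PU.1 peak. Of the members with such a window, Runx1, Runx2, Ikzf1 and Ikzf3 had one, and Cbfa2t3 and Ikzf2 had none. Over the summed length of the 10 windows, PU.1 peaks numbered 0.606 per 100 kb in EV and 2.36 in PuER, and CEBPA peaks 3.57 and 2.76. Over the windows of all protein-coding genes joined, the values were 0.302 and 0.847 for PU.1, and 1.45 and 1.14 for CEBPA. All 4 pooled values were thus higher at the RUNX and Ikaros loci, EV and CEBPA included, but this did not hold for each gene. Runx1, Runx2 and Ikzf1, with 751 of the 1484 kb, held 27 of the 35 PU.1 peaks and 33 of the 41 CEBPA peaks of PuER. For CEBPA of PuER, Runx3 (1.03 per 100 kb), Cbfa2t3, Ikzf2 and Ikzf4 (0 each) were below the value of all genes. For CEBPA of EV, those below were Runx3 (1.03), Cbfa2t3 (0.877), Ikzf2 and Ikzf4 (0 each). For PU.1 of EV they were Runx2 (0.279), Runx3, Ikzf2, Ikzf4 and Ikzf5 (0 each). For PU.1 of PuER they were Ikzf2, Ikzf4 and Ikzf5 (0 each). In each case the other members were above the value of all genes. By number, 18 genes had more PuER-only PU.1 peaks than Runx2, 46 had more than Ikzf1 and 70 more than Runx1. Their windows were 359, 128 and 265 kb long. Per 100 kb of window, 8.61%, 1.04% and 9.08% of all genes, respectively, had as many such peaks or more. The 5 genes with the most by number were Gm20388 with 34, Fgfr2 with 18, and Hdac9, Tg and Trps1 with 17 each. The records of Gm20388 and Fgfr2 have windows of 4475 and 3001 kb, and they hold Cbfa2t3 and Ikzf5, respectively.

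**Figure D4:**
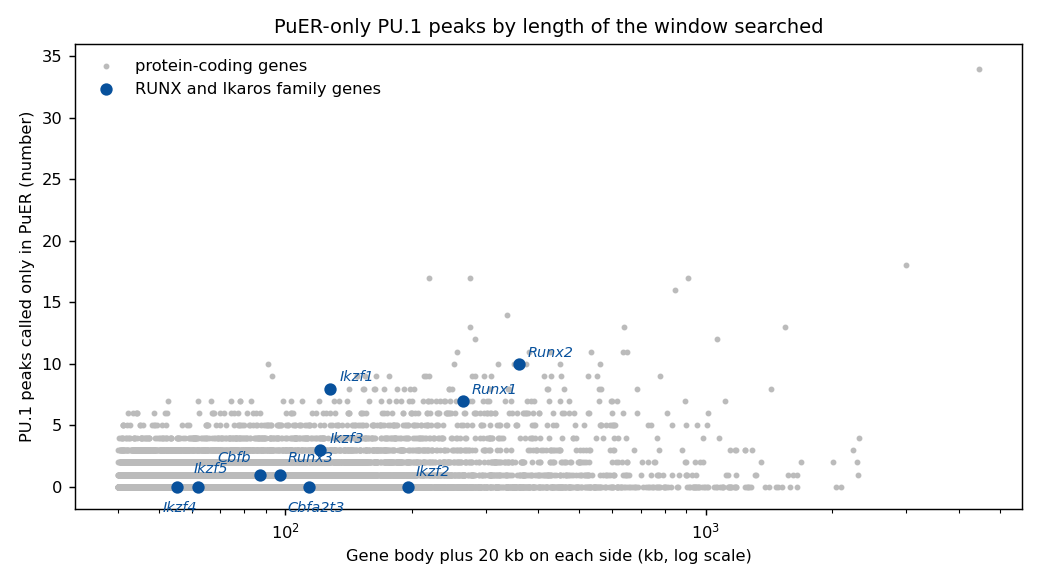
Number of PU.1 peaks called only in PuER against the length of the window searched (gene body plus 20 kb on each side, log axis) for all protein-coding genes (grey) and the 10 RUNX and Ikaros genes (blue). Runx2, Ikzf1 and Runx1, with 10, 8 and 7 peaks, are exceeded by 18, 46 and 70 genes, and Cbfa2t3, Ikzf2, Ikzf4 and Ikzf5 lie at 0.

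Peak classes at the loci were then compared with those of the whole lists. Of the PU.1 peaks of PuER, 85.7% were PuER-only (30 of 35, exact 95% confidence interval 69.7–95.2%), against 81.1% of all PU.1 peaks of PuER. Of the PU.1 peaks of EV, 44.4% were EV-only (4 of 9, 13.7–78.8%), against 43.8%. For CEBPA, 22.6% of the EV peaks were EV-only (12 of 53, 12.3–36.2%), against 30.7%. None of the 41 CEBPA peaks of PuER was PuER-only (0–8.60%), against 12.1% of all CEBPA peaks of PuER. The last value is the one class share whose interval did not hold the share of the whole list. With the margin widened to 50 kb it was 0 of 49 (0–7.25%). These intervals cover counting error only, and peaks at 1 gene are not independent of each other.

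**Figure D5:**
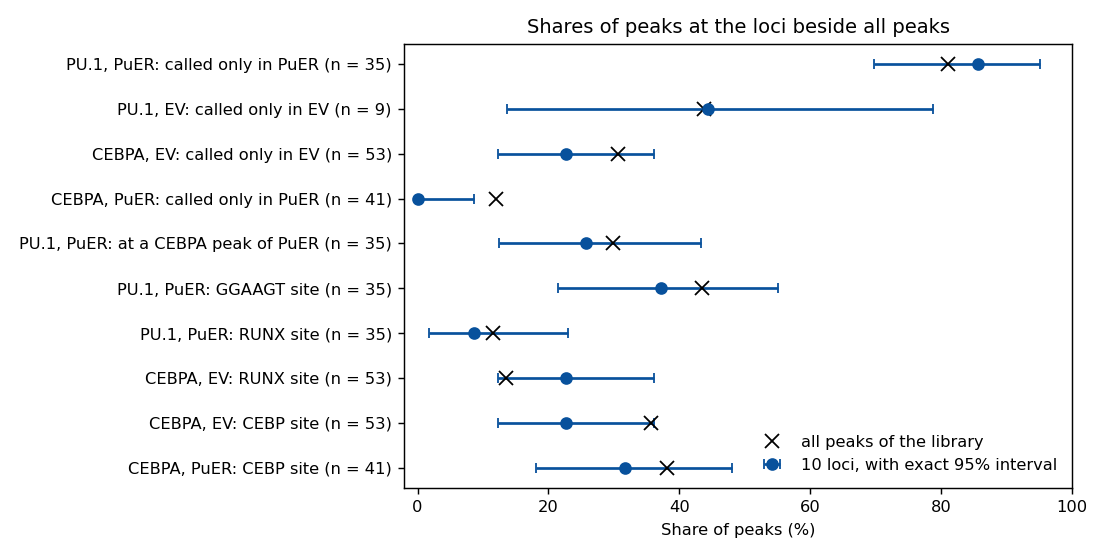
Share of peaks in % at the 10 loci (blue points, with exact 95% confidence intervals that cover counting error only) and over all peaks of the same library (crosses), for peak classes, overlap with CEBPA and motif sites. The cross lies outside the interval for CEBPA peaks called only in PuER (0 of 41 against 12.1%), and within it in the other rows.

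PU.1 and CEBPA calls were compared within and between the clones. Of the PU.1 peaks of PuER, 9 of 35 (25.7%, 12.5–43.3%) overlapped a CEBPA peak of PuER, against 29.8% of the whole list, and 5 of the 9 PU.1 peaks of EV overlapped a CEBPA peak of EV, against 57.6%. Counted from CEBPA, 5 of 53 peaks of EV (9.43%, 3.13–20.7%) overlapped a PU.1 peak of that clone, against 11.7%, and 9 of 41 peaks of PuER (22.0%, 10.6–37.6%) did so, against 22.7%. Of the PuER-only PU.1 peaks, 7 of 30 (23.3%, 9.93–42.3%) lay over a CEBPA peak of EV, against 18.1%. The PuER-only PU.1 peaks had the centre of the closest EV CEBPA peak at a median of 1782 bp (3 to 25802 bp), against 7685 bp over all PuER-only PU.1 peaks. This distance also depends on the number of CEBPA peaks per kb, which was higher at these loci.

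When overlapping peaks of the 4 lists were joined, the 138 peaks made 80 places. CEBPA of both clones without PU.1 made up 31 of them, and PU.1 of PuER alone 23. CEBPA of EV alone was found at 10 places, and PU.1 of PuER with CEBPA of both clones at 6. All 4 peaks were found at 3 places, at Runx1, Cbfb and Ikzf1. PU.1 of both clones without CEBPA was found at the 2 places upstream of Cbfa2t3. PU.1 of EV alone was also found at 2 places, at Runx2 and Ikzf3. Of the remaining 3 places, 2 were those of Runx1 with PU.1 of EV and CEBPA, and 1 was the place of Ikzf1 at 4.10 kb. Most peaks were in introns, with 23 of the 35 PU.1 peaks of PuER and 40 of the 53 CEBPA peaks of EV. The rule took peaks in or near gene bodies, so that these counts partly follow from it. In a protein-coding gene body lay 82.9% of the PU.1 peaks of PuER, against 53.6% of the whole list. For CEBPA of EV the shares were 92.5% and 55.5%. Promoters, taken as 1000 bp to either side of a transcription start, held 4 of the 35 PU.1 peaks of PuER (11.4%, 3.20–26.7%), against 12.0% of the whole list.

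Motif sites were counted in the central 80 bp and in 80-bp windows 2000 bp to either side. GGAAGT was present in 13 of the 35 PU.1 peaks of PuER (37.1%, 21.5–55.1%), against 43.5% of all PU.1 peaks of PuER, and in 3 of 70 flanking windows (4.29%). The PuER-only peaks held it in 9 of 30 cases (95% interval 14.7–49.4%), against 42.9% of all PuER-only PU.1 peaks. The shared peaks held it in 4 of 5 cases as placed in PuER and in 2 of 5 as placed in EV, against 46.1% and 42.0% of all shared peaks. In EV, 3 of 9 PU.1 peaks had it (33.3%, 7.49–70.1%), against 36.5%. This depended on the stretch searched. In the central 200 bp, GGAAGT was present in 6 of 9 PU.1 peaks of EV and in 17 of 35 of PuER (48.6%). The whole lists had 53.7% and 58.2%, respectively. The lower share of EV at 80 bp was thus not kept, and the clones cannot be ranked by this site. GAGGAAGT, which contains GGAAGT, was present in 4 of 35 PU.1 peaks of PuER (11.4%, 3.20–26.7%, against 15.2%) and in 0 of 9 of EV. Of the 4, 3 were at Ikzf1 and 1 at Runx2.

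RUNX sites were counted over the peaks of all 10 loci. TGTGGT or TGCGGT was present in 3 of 35 PU.1 peaks of PuER (8.57%, 1.80–23.1%), against 11.5% of the whole list, and in 4 of 70 flanking windows (5.71%). The 3 peaks were the one at the distal Runx1 promoter, the only one among the 23 PU.1 peaks of PuER at the RUNX complex genes, and those of Ikzf1 at 4.10 and 96.9 kb. In CEBPA peaks of EV, RUNX sites were present in 12 of 53 (22.6%, 12.3–36.2%), against 13.5% of the whole list and 8 of 106 flanking windows (7.55%). In CEBPA peaks of PuER, they were present in 8 of 41 (19.5%, 8.82–34.9%), against 12.7%. TTGCNNAA was present in 12 of 53 CEBPA peaks of EV (22.6%, 12.3–36.2%), against 35.6%, and in 13 of 41 of PuER (31.7%, 18.1–48.1%), against 38.2%. Of the 12 CEBPA peaks called only in EV, 1 had it (8.33%, 0.211–38.5%), against 28.3% of all such peaks. A match of letters is a description of the sequence and does not show which protein was bound.

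Genes for cofactors of RUNX and Ikaros proteins were counted by the same rule, from a list of 28 corepressor, coactivator and chromatin remodelling genes. A PuER-only PU.1 peak was found at 18 of the 28, against the 36.7% of all genes given above. Their windows had a median of 91.2 kb, which is also longer than that of all genes. Among all genes, 44.0% of those with a window of at least 50 kb had such a peak. With at least 100 kb the share was 55.2%. No share by window length was computed for CEBPA. The most PuER-only PU.1 peaks of the 28 were at Crebbp, an acetyltransferase gene, and Tle3, a Groucho corepressor gene, with 4 each. Mta3, of the NuRD complex that Ikaros recruits, and Smarca4, the BRG1 ATPase gene, had 3 each. At Crebbp, PU.1 gave 0 peaks in EV and 4 in PuER, and CEBPA gave 3 in EV and 0 in PuER. This was not so at Tle3, Smarca4 and Mta3. There CEBPA gave 5, 3 and 5 peaks in EV and 5, 3 and 3 in PuER, respectively. CEBPA peaks called only in EV were found at 17 of the 28 genes, against 30.1% of all genes. Ones called only in PuER were found at 4 (Ctbp2, Ep300, Smarca4 and Tle3), against 11.4% of all genes. Cbfa2t2 and Runx1t1, the relatives of Cbfa2t3, and Hdac2 had no peak in any list.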

How the data were processed

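PU.1 and CEBPA ChIP-Seq of X18.1.1 clones with the empty vector or PuER was analysed, with 1 library per antibody and line in 4 of the 8 samples of the series. Samples for H3K27Ac and IgG were left out and are not analysed here. Per the labels, reads were mapped by the authors to mm10 with Bowtie2 2.0.6 and peaks were called with MACS2 2.0.10. The deposited values are peak coordinates (start and end of 400-bp intervals), with no score, count or depth, and the calling threshold is not given in the sources used here. Samples were grouped by the labels.

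The genes, the cofactor list, the motifs and the alternatives were chosen with earlier results of these data known. The genes to be named were all 10 members, neighbours whose start was closest to a peak, and the 5 genes with the most PuER-only PU.1 peaks. Peaks were assigned to genes of GENCODE M21 by their centre, and peaks of different libraries were matched by an overlap of at least 1 bp. Sequences came from the GRCm38 reference, and motifs were counted as exact matches on both strands. Shares have exact Clopper-Pearson 95% intervals, and no p-value was computed. The overlap rules behind the classes and the motif search were tested on simulated data before use, and the gene assignment was not. The alternatives were other margins, gene models, overlaps, sequence lengths and promoter widths, and assignment of each peak to the nearest gene body only. Scripts ran under Python 3.11.15 with pysam 0.24.0 for sequences, scipy 1.17.1 for intervals, pandas 2.3.3 and matplotlib 3.10.9.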

Additional observations from a re-analysis of the deposited data

How the results depend on the processing

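Of 70 recomputed values, 66 stayed within 1.5 times the reported count or within the confidence interval of the reported share. The alternatives reused the same peak lists and the intervals were wide, so that staying within these limits is a weak check. CEBPA peaks called only in EV fell from 12 to 8 with no margin. They also numbered 8 when each peak was given to the nearest gene body only. With a margin of 50 kb they rose from 12 to 19, since more sequence was searched. A longer stretch of each peak also held more sites. In the whole peak, GGAAGT was found in 6 of 9 PU.1 peaks of EV and in 18 of 35 of PuER (51.4%). The order of the clones was thus the reverse of that in the central 80 bp, as it was in the central 200 bp. RUNX sites were found in 28.6% of the PU.1 peaks of PuER in the central 200 bp and in 31.4% in the whole peak, against 26.1% and 39.7% of the whole list. TTGCNNAA was found in 41.5% of the CEBPA peaks of EV in the whole peak, against 51.7% of the whole list. The number of PuER-only PU.1 peaks ranged from 23 with no margin to 34 with 50 kb, and the number of genes with one from 4 with no margin to 7, Cbfa2t3 being added, when shared peaks had to overlap by 50% of each or to have centres within 100 bp. With each peak given to the nearest gene body only, PuER-only PU.1 peaks numbered 25, at 5 genes. CEBPA peaks called only in PuER numbered 0 under every alternative run for them. A stricter calling threshold could not be tried, because the lists hold no scores, and no library could be left out, because there was 1 per antibody and line. No paired analysis was possible because no result comes from a test and each group has 1 library.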
